A study of Mus musculus with 6 samples.

Results

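The Notch genes considered here were 4 receptors (Notch1, Notch2, Notch3 and Notch4), 3 ligands (Jag1, Jag2 and Dll4) and 3 transcriptional targets (Hes1, Hey1 and Heyl). They were chosen by name, and all 10 were present among the 19176 rows of the table of renal cortex mRNA. Renal cortex came from 8-week-old male wild-type C57BL/6J mice in which the left renal pedicle had been clamped for 35 min (unilateral renal ischemia-reperfusion, UIRI), and in all of them the right kidney was removed on day 13. The UIRI group (n = 3) received vehicle and the UIRI + BA group (n = 3) received BA at 1 mg/kg intraperitoneally every day, and tissue was taken on day 14. BA is named Brucine A in the deposited labels and Bruceine A, a quassinoid of Brucea javanica, in the publication. Sham kidneys were not analysed here, so every difference below is between injured kidneys with and without BA.

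Notch receptors sit in the cell membrane and are activated by ligands of the Jagged and Delta-like families on a neighbouring cell. Binding lets a metalloprotease and then the γ-secretase complex cut the receptor, and the freed intracellular part joins the DNA-binding protein RBPJ in the nucleus and switches on repressors of the Hes and Hey families. In the kidney, Notch2 is required for proximal nephron segments during development, Notch3 is typical of vascular smooth muscle and pericytes, and Notch4 and Dll4 are typical of endothelium. Notch signaling in tubules is known to be reactivated after injury.

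Between UIRI and UIRI + BA, no member passed the test across all genes, and the 95% interval of each difference included 0. In limma's test over all genes (log2 of the normalized count plus 1, Benjamini-Hochberg adjustment), 0 of the 10 members had an adjusted p below 0.05, and the smallest adjusted p among them was 0.516, for Jag2. DESeq2 and edgeR, applied to the reads recovered from the table, also gave 0 members. Limma called 0% of all 19176 genes and edgeR 0 genes, whereas DESeq2 called 213. Leaving out UIRI replicate 3 raised the limma count to 962 genes, still with 0 members. At an unadjusted p below 0.05 there were 0 members as well, against 10.3% of all genes (5.67% higher and 4.61% lower with BA). Of the members, 8 had a log2 fold change below 0 and 2 above 0, with a median of -0.10, and over all genes 9793 were below 0 and the median was -0.01. Without UIRI + BA replicate 3, 6 members were below 0 and their median was -0.0073. Non-overlapping groups were found for 1 of the 10 members, Jag2, which was lower with BA, against 14.4% of all genes (7.45% higher and 6.96% lower). With 3 libraries against 3, the exact two-sided permutation test of a single gene cannot give a p below 0.1.

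Sequencing depth ran from 16510720 to 38124164 reads on genes, and the deepest library, UIRI replicate 3, held 2.04 times the median of the other 5. Markers of the labelled tissue were present throughout: all 14 proximal tubule markers looked for were in the table, and their mean log2 value lay between 10.85 and 11.52 with vehicle and between 11.62 and 11.95 with BA. Vessel markers, the other cells in which Notch genes are typically expressed, overlapped between the groups, with a mean log2 value of 13 endothelial markers of 10.37 to 10.53 in UIRI and 10.37 to 10.49 in UIRI + BA. Urothelial markers differed between libraries, with mean log2 values of 4.87, 4.75 and 6.42 with vehicle and of 2.99, 3.06 and 5.80 with BA. Of the 10, 9 had a log2 fold change below 0, Krt14 and Upk2 were at 0 in UIRI + BA replicates 1 and 2 and Upk3a in replicate 2, and the summed normalized count ran from 1288 to 1717 with vehicle and from 1278 to 1934 with BA. Most of that sum was Krt20, the marker above 0 (log2 fold change 0.41, unadjusted p = 0.0141 from limma). The other 9 summed to 221, 188 and 716 with vehicle and to 81.4, 89.4 and 442 with BA. Since whole cortex was sequenced, fewer cells of a type and less RNA per cell cannot be told apart.

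Levels of the members spanned a wide range once divided by the length of their annotated exons. Per kilobase of exon, Jag1 (404, range over the 6 libraries 343 to 564) and Hes1 (394, range 339 to 475) had the highest normalized counts. These top members could not be ordered, as Jag1 was above Hes1 in 4 of 6 libraries. Notch2 followed at 255 per kilobase (239.8 to 278), then Heyl at 145 (126 to 163), and each of these ranges lay apart from its neighbours. Notch3 at 79.6 per kilobase (70.6 to 91.2) and Dll4 at 66.9 (52.8 to 76.5) had overlapping ranges, although Notch3 was above Dll4 in 6 of 6 libraries. Notch4 stood at 39.9 per kilobase (35.5 to 44.1). Notch1 at 27.8 (23.3 to 33.9) and Jag2 at 24.5 (18.5 to 31.7) overlapped. Hey1 was the least abundant member, at 13.4 per kilobase (9.21 to 17.7).

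Notch2, Jag1 and Hes1 held the largest share of their role among the 10 members in all 6 libraries. Ligands and targets outside the members were left out of the sums, the most abundant being Dll1 (61.2 per kilobase) and Hes6 (230). Relative to their own size, though not in percentage points for most, the shares of the less abundant members varied more from library to library. Notch2 provided 61.6% to 65.7% of the summed receptor level per kilobase, 63.6% ± 1.79 (SD, n = 3) with vehicle and 63.2% ± 1.58 (SD, n = 3) with BA. Notch3 made up 18.7% to 21.8%, Notch4 8.44% to 10.96% and Notch1 5.97% to 8.29%. Among the ligands, Jag1 accounted for 80.9% ± 4.44 (SD, n = 3) with vehicle and 81.4% ± 2.44 (SD, n = 3) with BA, and its highest share, 86.0%, was in UIRI replicate 3. Dll4 held 10.1% to 16.2% and Jag2 3.59% to 6.99% of the ligands. Among the targets, Hes1 held 72.2% ± 5.36 (SD, n = 3) with vehicle and 70.0% ± 2.83 (SD, n = 3) with BA. Heyl held 20.51% to 31.3% and Hey1 1.68% to 3.05% of the targets. The groups overlapped in the share of every member.

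**Figure D1:**
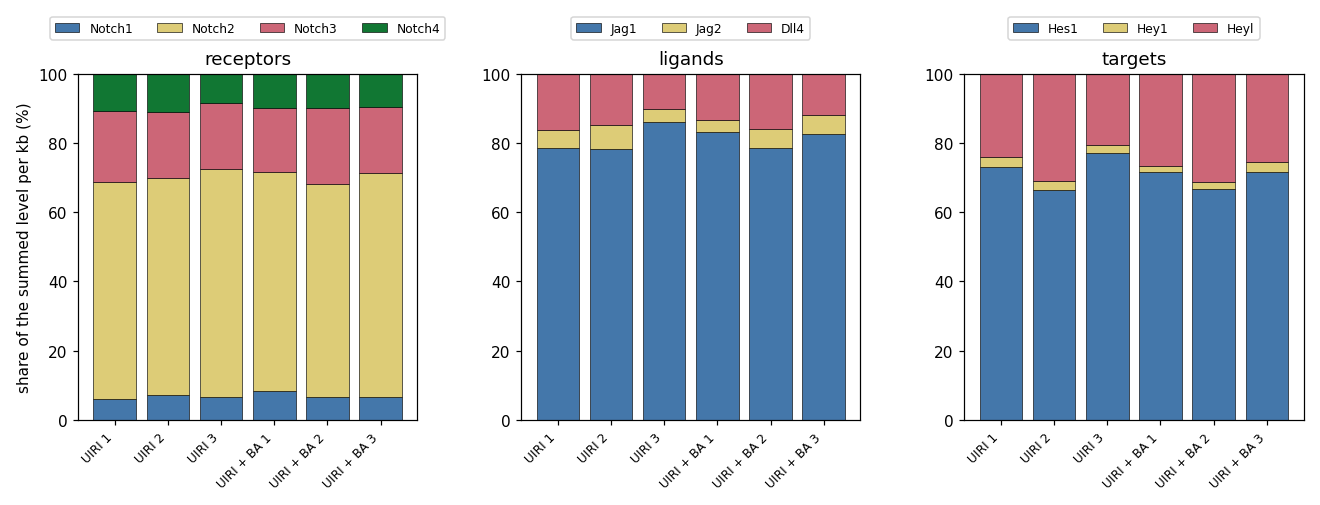
Stacked bars give, for each of the 6 libraries, the share of each receptor, ligand and target among the 10 members. Shares are percentages of the summed normalized count per kilobase of exon within a role. Notch2, Jag1 and Hes1 are the largest piece of their panel in every library, and the pieces of UIRI and UIRI + BA libraries overlap in size.

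Promoter sequence was looked up for the members as background to their transcription, and 7 of the 10 had a start in the RefSeq table (build GRCm38.p6). These 7 were the receptors and ligands. The targets Hes1, Hey1 and Heyl had no start there, so no target promoter was searched. In the 250 bases upstream of the start, neither TGGGAA, the core of the RBPJ site, nor the longer GTGGGAA was found on either strand of the 7 promoters, and 21.6% and 5.42% of all 32851 promoters listed there hold them. GTGGGAA contains TGGGAA, so matches to the longer word count for both. The N box CACNAG, the word that Hes repressors recognise, was found on either strand in 4 of the 7 (Notch1, Notch2, Notch3 and Dll4), against 36.7% of all promoters. A match of letters is no evidence of binding, and its absence says only that the word is not in this window. The upstream stretches of Dll4 and Notch3 are shown because they hold the N box and lie with their whole length before the annotated gene. Letters of the N box, on either strand, are in capitals. That of Dll4 is chr2:119325534-119325783 on the plus strand, with 1 match that begins 75 bases before the start, and that of Notch3 is chr17:32166891-32167140 on the minus strand, with 2 matches that begin 204 and 159 bases before the start, the latter on the opposite strand.
Dll4: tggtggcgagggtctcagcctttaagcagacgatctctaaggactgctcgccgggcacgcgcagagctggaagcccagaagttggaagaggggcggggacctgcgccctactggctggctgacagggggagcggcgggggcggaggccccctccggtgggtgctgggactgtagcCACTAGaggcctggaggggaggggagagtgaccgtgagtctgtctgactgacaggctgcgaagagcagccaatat
Notch3: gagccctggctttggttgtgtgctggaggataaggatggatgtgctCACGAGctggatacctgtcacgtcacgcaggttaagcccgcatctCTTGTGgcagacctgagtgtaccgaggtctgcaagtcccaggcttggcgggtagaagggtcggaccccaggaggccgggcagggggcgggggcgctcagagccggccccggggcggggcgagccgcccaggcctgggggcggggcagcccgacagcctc

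The 4 receptors are paralogous single-pass proteins that share the same activation route. Positions of the members are gene bodies in GENCODE M21 on GRCm38. Exons of 0610009E02Rik cover 7.5% and those of Gm13568 cover 2.91% of the exon bases of Notch1, and exons of other annotated genes cover 5.02% of Notch2, 6.03% of Notch3 and 5.56% of Dll4, and reads there could belong to either gene. Notch1 (chromosome 2, 26457903 to 26516663, minus strand) read 332, 409 and 405 normalized counts with vehicle (UIRI, replicates 1, 2 and 3 in this and all later sentences), against 482, 396 and 351 with BA. The highest and the second lowest value both came from UIRI + BA, so the groups overlapped, with a log2 fold change of 0.09 (standard error 0.14, 95% interval -0.22 to 0.41, adjusted p = 0.815 from limma). The direction of Notch1 rested on single libraries, as leaving out UIRI replicate 1 gave -0.003 and leaving out UIRI + BA replicate 1 gave -0.029.

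Notch2 (chromosome 3, 98013527 to 98150361, plus strand), the most abundant receptor, read 2636, 2714 and 2999 with vehicle, against 2782, 2775 and 2586 with BA. UIRI replicate 3 was highest and UIRI + BA replicate 3 lowest, and the other 4 libraries lay between them. Means were 2783 ± 191 (SD, n = 3) and 2714 ± 112 (SD, n = 3), and the 95% interval of the fold from limma ran from 0.864 to 1.10, the narrowest among the members.

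Notch3 (chromosome 17, 32120820 to 32166852, minus strand), a receptor of mural cells, read 655, 628 and 656 with vehicle, against 618, 738 and 571 with BA. The UIRI libraries lay inside the range of the UIRI + BA libraries, whose standard deviation was 86.1 against 16.1, and the log2 fold change was -0.02 (standard error 0.11). Notch4 (chromosome 17, 34564268 to 34588503, plus strand), an endothelial receptor, read 338, 355 and 288 with vehicle, against 326, 335 and 286 with BA, with replicate 3 lowest in both groups. Its log2 fold change was -0.05 (standard error 0.12, 95% interval -0.32 to 0.22). Without UIRI + BA replicate 3, the log2 fold change was 0.063 for Notch3 and 0.020 for Notch4.

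**Figure D2:**
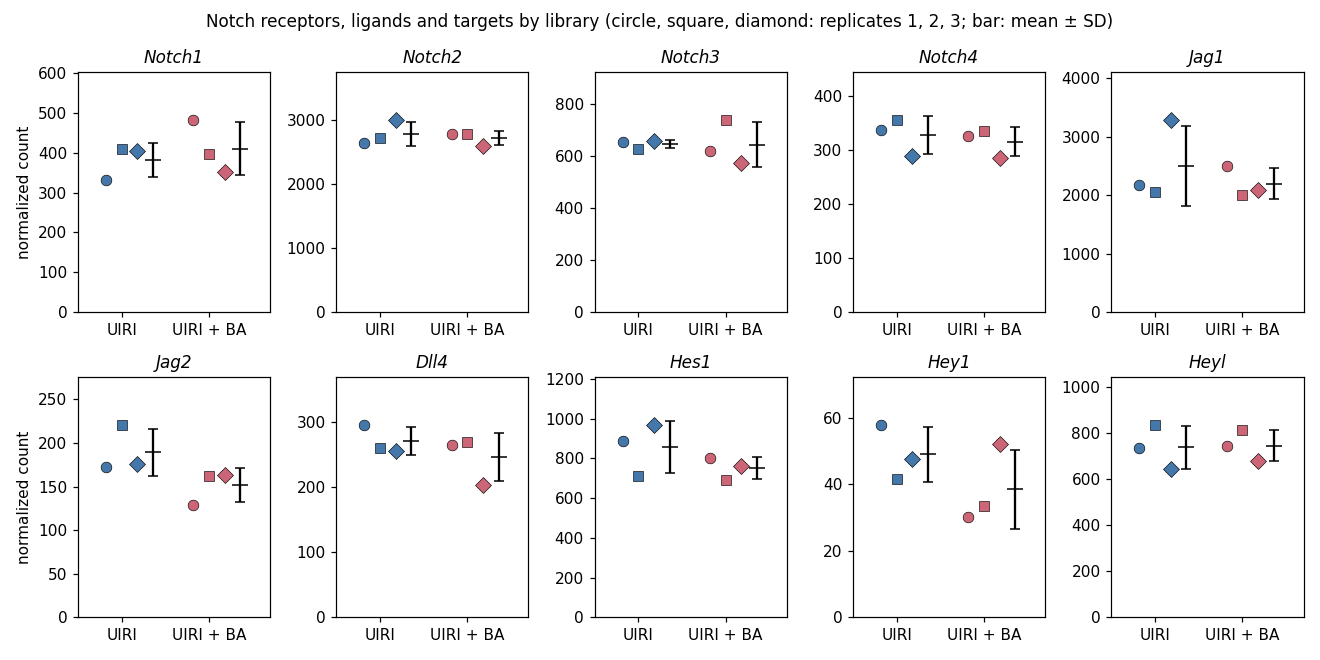
Each panel plots the normalized count of a member (y axis, from 0) in the 3 UIRI and the 3 UIRI + BA libraries, with circles, squares and diamonds for replicates 1, 2 and 3 and a bar for the mean ± SD. The groups overlap in every panel except that of Jag2, where UIRI libraries read 172 to 220.5 and UIRI + BA libraries 129 to 164.

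The 3 member ligands all had a log2 fold change below 0, as did 9793 of all 19176 genes. The 2 other ligands in the table, Dll1 (0.01) and Dlk1 (0.33, on few reads), were above 0. Jag1 (chromosome 2, 137081456 to 137116644, minus strand), a Jagged ligand, read 2167, 2059 and 3289 with vehicle, against 2498, 1997 and 2097 with BA. UIRI replicate 3 stood well above the rest, and the other 5 libraries were intermixed. The log2 fold change of Jag1 was -0.16 (standard error 0.17, adjusted p = 0.733 from limma) and turned to 0.050 without UIRI replicate 3. That library also had the highest means of the urothelial markers, 6.42, and of the injured tubule markers, 13.11. The comparison planned for Jag1 was with injured and proximal tubule markers. Pearson's r of Jag1 over the 6 libraries was 0.445 with the urothelial mean. Over all marker lists it ran from -0.661 (endothelial) to 0.596 (thick limb and distal tubule). UIRI + BA replicate 3 had the second highest urothelial mean (5.80) and a Jag1 value of 2097. The part of urothelium in the Jag1 values was not tested.

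Jag2 (chromosome 12, 112907819 to 112929776, minus strand), the second Jagged ligand, read 172, 220.5 and 176 with vehicle, against 129, 163 and 164 with BA. All UIRI libraries lay above all UIRI + BA libraries, the closest being UIRI replicate 1 at 172 and UIRI + BA replicate 3 at 164 (exact two-sided permutation test, p = 0.1). Means were 189 ± 26.9 (SD, n = 3) and 152 ± 19.7 (SD, n = 3). The log2 fold change of Jag2 was -0.32 (standard error 0.15, 95% interval -0.66 to 0.03, unadjusted p = 0.0672 and adjusted p = 0.516 from limma). It was closest to 0 when UIRI replicate 2 or UIRI + BA replicate 1 was left out (-0.20 in both) and farthest when UIRI replicate 1 was (-0.38). The sign held in all 13 alternatives, but with groups that do not overlap, leaving out a library could not turn it.

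Dll4 (chromosome 2, 119325784 to 119335962, plus strand), the Delta-like ligand of endothelial tip cells and arteries, read 295, 259.8 and 256 with vehicle, against 264, 269 and 203 with BA. A single library, UIRI + BA replicate 3, lay below all others, and without it the log2 fold change of -0.14 (standard error 0.14) became -0.01. Dll4 minus the mean of the 13 endothelial markers, on the log2 scale, was -2.50 to -2.28 in UIRI and -2.70 to -2.32 in UIRI + BA.

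The targets are basic helix-loop-helix repressors whose transcription RBPJ activates. Hes1 (chromosome 16, 30064384 to 30067796, plus strand) read 889, 712 and 967 with vehicle, against 800.5, 690.3 and 763 with BA. Replicate 2 was the lowest of both groups, and UIRI replicates 1 and 3 lay above the UIRI + BA libraries. The log2 fold change of Hes1 was -0.18 (standard error 0.12, 95% interval -0.45 to 0.09, adjusted p = 0.613 from limma). Without UIRI replicate 2 it was -0.31 with an unadjusted p of 0.0200 from limma, which did not pass adjustment. Without UIRI replicate 3 it was -0.086 and without UIRI + BA replicate 2 it was -0.12, so its size rested on single libraries.

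Hey1 (chromosome 3, 8663359 to 8667256, minus strand) read 57.8, 41.6 and 47.6 with vehicle, against 30.1, 33.4 and 52.2 with BA. UIRI + BA replicates 1 and 2 were the lowest libraries, whereas UIRI + BA replicate 3 was second only to UIRI replicate 1. Hey1 rested on 24 to 87 reads per library, and at 24 reads counting alone gives a coefficient of variation of 20.4%. Its log2 fold change of -0.37 (standard error 0.25) was the largest in size among the members and also the least certain, with a 95% interval of -0.94 to 0.21 and an adjusted p of 0.622 from limma. Without UIRI + BA replicate 3 it was -0.60 with an unadjusted p of 0.0363 from limma, which did not pass adjustment either. Leaving out UIRI + BA replicate 1 gave -0.21 and leaving out UIRI replicate 1 gave -0.24. Fibroblast markers ran alongside Hey1: the mean log2 value of 8 of them (the fibrillar collagen genes Col1a1, Col1a2 and Col3a1, and Fn1, Postn, Pdgfra, Dcn and Lum) was 12.98, 12.66 and 12.80 with vehicle and 12.25, 12.31 and 12.71 with BA. Their summed normalized count ran from 107697 to 126454 with vehicle and from 78460 to 99987 with BA, and none was at 0. Pearson's r between Hey1 and this mean was 0.965 over the 6 libraries, a description over points that share their library and depth. It was the highest of the 100 values between the 10 members and the 10 marker lists, followed by Dll4 with the leukocyte markers (0.905), and Hey1 with the urothelial markers stood at 0.816. The comparison planned for Hey1 was with vessel markers, where r was 0.051 for the endothelial and 0.529 for the arterial list. Relative to the endothelial mean, on the log2 scale, Hey1 lay between -5.12 and -4.61 in UIRI and between -5.41 and -4.65 in UIRI + BA, with overlap. All 8 fibroblast markers had a log2 fold change below 0. An unadjusted p below 0.05 from limma was found for 5 of them, against 4.61% of all genes in that direction. None of the 8 passed adjustment (smallest adjusted p 0.291 from limma). The part of fibroblast content in the Hey1 values was not tested.

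Heyl (chromosome 4, 123233556 to 123249875, plus strand), a target typical of vascular smooth muscle, read 735, 836 and 645 with vehicle, against 747, 813 and 681 with BA. In both groups replicate 2 was highest and replicate 3 lowest, and the log2 fold change was 0.02 (standard error 0.11, 95% interval -0.24 to 0.28). Relative to the mean of 9 pericyte and smooth muscle markers, on the log2 scale, Heyl lay between -0.20 and 0.16 with vehicle and between -0.03 and 0.29 with BA. Notch3 lay between -0.26 and -0.03 and between -0.29 and 0.02 on the same scale. Of these 9 markers, 7 had a log2 fold change below 0 and 2 above 0, Rgs5 (0.16) and Cspg4 (0.16). Only Des (-0.30) and Pdgfrb (-0.20), both lower, had an unadjusted p below 0.05, against 10.3% of all genes, and none passed adjustment. The mean log2 value of the 9 overlapped between the groups, at 9.39 to 9.55 in UIRI and 9.26 to 9.52 in UIRI + BA.

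**Figure D3:**
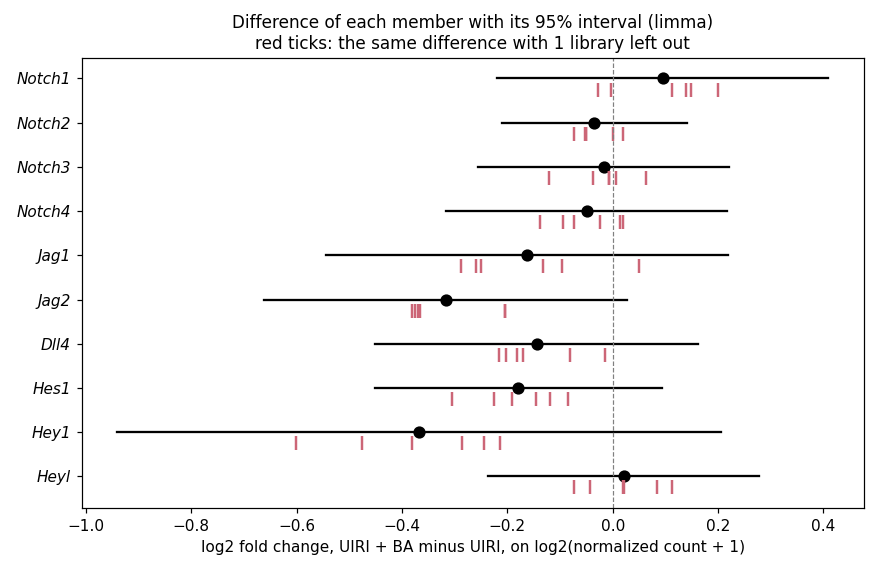
Black points give the log2 fold change of each member (UIRI + BA minus UIRI, x axis) with the 95% interval from limma as a line, and red ticks give it with each of the 6 libraries left out. Every interval includes 0, from the narrow one of Notch2 (-0.21 to 0.14) to the wide one of Hey1 (-0.94 to 0.21), and the ticks of Jag2, Dll4, Hes1 and Hey1 all lie below 0.

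**Figure D4:**
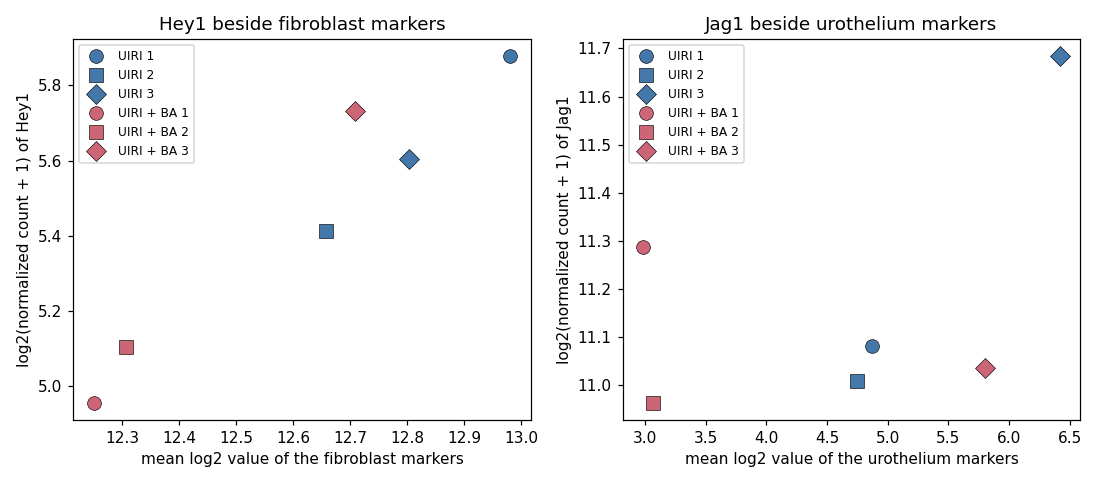
The left panel plots log2 of the normalized count plus 1 of Hey1 against the mean log2 value of 8 fibroblast markers in the 6 libraries, and the right panel plots Jag1 against 10 urothelium markers. Hey1 follows the fibroblast mean from UIRI + BA replicate 1 at 12.25 to UIRI replicate 1 at 12.98. The highest Jag1 value is that of UIRI replicate 3, and the urothelial mean of UIRI + BA replicate 3 is 5.80.

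The proximal tubule markers were the only one of the 10 cell marker lists whose mean did not overlap between the groups. Of the 14, 12 were higher at an unadjusted p below 0.05 from limma, against 5.67% of all genes. They were led by Hnf4a (log2 fold change 0.55), Slc13a3 (0.77) and Slc27a2 (0.66), and none of the 14 passed adjustment (smallest adjusted p 0.225 from limma). Notch2, Jag1 and Hes1 had log2 fold changes below 0 beside them. Relative to the mean of the 14 proximal tubule markers, Notch2 lay between 0.03 and 0.51 in UIRI and between -0.62 and -0.18 in UIRI + BA on the log2 scale, without overlap. Jag1 (0.01 to 0.23 and -0.92 to -0.48) and Hes1 (-1.60 to -1.05 and -2.38 to -2.12) did not overlap on this scale either. The marker mean itself was higher by 0.65 with BA, and Notch2 alone had a log2 fold change of -0.03 with overlapping groups. A gene with equal values in all libraries would also separate on this scale. Injured tubule markers were divided, with Havcr1 (0.42) and Vcam1 (0.35) higher and Lcn2 (-0.51), Krt18 (-0.39), Krt19 (-0.54) and Vim (-0.30) lower at an unadjusted p below 0.05 and none below 0.05 after adjustment. Notch2 relative to the mean of these 12 injury markers ranged from -1.69 to -1.555 in UIRI and from -1.63 to -1.44 in UIRI + BA, so the groups overlapped. The same held for Jag1 (-1.98 to -1.42 and -2.05 to -1.60) and Hes1 (-3.50 to -3.19 and -3.58 to -3.24).

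Genes whose values most resembled a member over the 6 libraries were sought among the 13939 genes that averaged 50 or more normalized counts, for the receptor, the ligand and the target with the smallest p. Notch1 was closest to Syt17 (Pearson's r = 0.982) and Mir155hg (0.981), Jag2 to Xirp2 (0.987) and Col6a6 (0.986), and Hes1 to Dctd (0.999). These are descriptions over 6 points that share library and depth, out of a search through all of those genes. Among the members themselves, the highest r was between Notch4 and Heyl (0.913), followed by Notch2 and Jag1 (0.823) and by Jag1 and Hes1 (0.810), and the lowest was between Notch1 and Hey1 (-0.867).

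Other components of the pathway were examined in a list of 47 genes, of which 44 were in the table and the ligand genes Dll3 and Dlk2 and the target gene Hes5 were not. Of the 44 genes, 23 had a log2 fold change above 0 and 21 below 0, with a median of 0.005. An adjusted p below 0.05 was found for 0, and an unadjusted p below 0.05 for 1, which was higher with BA, against 10.3% of all genes. That gene, Neurl1b, encodes a ubiquitin ligase of the Neuralized family, which act on Notch ligands. Neurl1b read 667, 689 and 909 with vehicle, against 1049.8, 970.3 and 976 with BA. All UIRI + BA libraries lay above all UIRI libraries, with UIRI replicate 3 closest to them. The log2 fold change of Neurl1b was 0.42 (standard error 0.12, 95% interval 0.14 to 0.69, unadjusted p = 0.00704, adjusted p = 0.338 from limma). Without UIRI replicate 3 it was 0.56 with an adjusted p of 0.0113 from limma, the only setting in which Neurl1b passed adjustment. In that setting 962 of all 19176 genes passed, against 0 with all libraries kept.

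The second Neuralized gene, Neurl1a, read 221, 162 and 184 with vehicle, against 150.3, 154 and 151 with BA. Its groups did not overlap either, in the opposite direction, with a log2 fold change of -0.30 (standard error 0.14, unadjusted p = 0.0586, adjusted p = 0.499 from limma). Mib1, the most abundant ubiquitin ligase of this role per kilobase, had a log2 fold change of 0.18 (95% interval -0.12 to 0.47).

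Among 10 genes of receptor cleavage, 6 were above 0 and 4 below 0, within -0.12 to 0.13. Psenen, the most abundant of them per kilobase and a subunit of γ-secretase, had a log2 fold change of -0.08. Psen2, a catalytic subunit, read 671, 631 and 607 with vehicle, against 598, 576 and 583 with BA. Its groups did not overlap, but its log2 fold change was only -0.12 (standard error 0.08, unadjusted p = 0.183 from limma). Groups without overlap were thus found for 3 of the 44 genes, 1 higher and 2 lower with BA, against 14.4% of all genes.

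The nuclear complex held 10 genes within -0.23 to 0.18, and Kat2b, an acetyltransferase and the most abundant of them per kilobase, was at 0.09. Rbpj, the DNA-binding partner itself, read 2601, 2812 and 2827 with vehicle, against 2876, 2851 and 2555 with BA, with a log2 fold change of 0.01 (95% interval -0.17 to 0.18). Receptor glycosylation (5 genes, within -0.19 to 0.08) was led in level by Lfng, a Fringe enzyme that sets which ligands a receptor answers to, at -0.19 (standard error 0.12). Receptor turnover (9 genes, within -0.19 to 0.13) was led by Dtx3 at -0.01. Dll1, the most abundant of the other ligands, was at 0.01. Hes6, the most abundant per kilobase of the genes listed as other targets, was at -0.01, and whether Hes6 responds to Notch here was not tested. Nrarp, a feedback target, rested on few reads, 7 in the lowest library, and its 95% interval of -0.74 to 0.74 left a wide span.

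**Figure D5:**
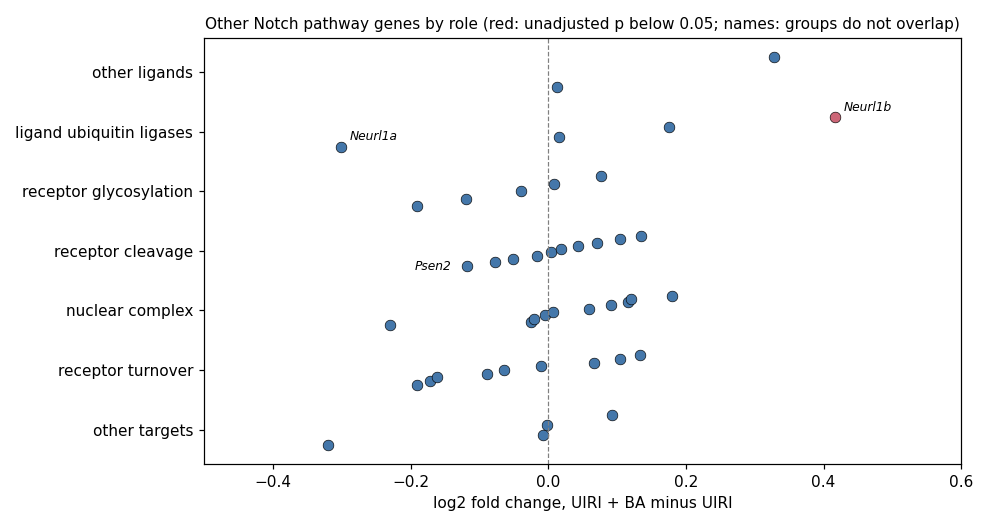
Each point is 1 of the 44 other Notch pathway genes, placed by its log2 fold change (UIRI + BA minus UIRI, x axis) in the row of its role, with names for genes whose groups do not overlap. Neurl1b, at 0.42, is the only red point (unadjusted p below 0.05), and the other points lie within -0.32 to 0.33.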

How the data were processed

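Poly(A) RNA of renal cortex was sequenced in 3 UIRI and 3 UIRI + BA libraries, grouped by their titles. The authors aligned reads with HISAT2, counted them with FeatureCounts and name FPKM and DESeq2, and the build and annotation are not given in the sources used here. The deposited values are a signal per gene and library, namely read counts scaled by a factor per library, and 100% of them were whole reads within 0.05 of a read after division by the library's step. The deposited table also holds the authors' log2 fold change, p-value and adjusted p-value, and 2 further tables hold enrichment of called genes, none of which was used. No column of values per library went unused.

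As these values are not raw counts, limma 3.58.1 in R 4.3.3 with an intensity trend was fitted to log2 of the value plus 1 over all 19176 rows (19166 symbols), without covariate, and p-values were adjusted over all of them at a threshold of 0.05. Intervals are limma's at 95%. DESeq2 1.42.0 and edgeR 4.0.16 on the recovered reads, upper quartile scaling, quantile normalization, a pseudocount of 0.1, a minimum of 1 in every library, a replicate block and each library left out were alternatives. The tools were tested on simulated data. No 2 libraries of a group agreed within sampling noise (chi-square per degree of freedom 5.17 to 29.9). The publication describes the libraries as independent biological replicates.

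Exon lengths and positions came from GENCODE release M21 (GRCm38) by symbol. Exons shared with other genes lay on the opposite strand for Notch1, Notch3 and Dll4 and on the same strand for Notch2. The strand setting of the counting is not given in the sources used here. Named were all members, pathway genes with an unadjusted p below 0.05, the most abundant gene of each role, and at most 3 genes per cell list by smallest p. Neurl1a, Psen2, Rbpj, Nrarp, Krt14, Upk2, Upk3a, Rgs5, Cspg4 and the further injury, fibroblast and ligand genes fall outside the rule and were chosen after seeing their values. The members and lists were chosen with earlier results of these data known. A further gene that the rule for genes most like a member names is not reported here.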

Additional observations from a re-analysis of the deposited data

How the results depend on the processing

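In all 13 alternatives, 0 members had an adjusted p below 0.05, the smallest being 0.210 for Jag2 without UIRI replicate 3. Jag2, Dll4, Hes1 and Hey1 kept a log2 fold change below 0 throughout. For Jag2, whose groups do not overlap, leaving out a library could not have turned the sign. Leaving out 1 library turned the sign of Notch1 (-0.029 to 0.20), Notch2 (-0.073 to 0.020), Notch3 (-0.12 to 0.063), Notch4 (-0.14 to 0.020), Jag1 (-0.29 to 0.050) and Heyl (-0.073 to 0.11), and upper quartile scaling turned Heyl (-0.0012). The cause of these turns was not tested. Members at an unadjusted p below 0.05 numbered 0 to 1 with a library left out, namely Hes1 without UIRI replicate 2 and Hey1 without UIRI + BA replicate 3. Other pathway genes at that threshold numbered 1 to 8 with a library left out (8 without UIRI replicate 3, 4 of them lower) and 3 with upper quartile scaling (Neurl1a, Neurl1b and Dtx4). Neurl1b ran from 0.33 to 0.56. Over all genes, those at an adjusted p below 0.05 numbered 0 in limma (1971 at an unadjusted p below 0.05), 0 in edgeR, 213 in DESeq2 and 0 to 962 with a library left out (962 without UIRI replicate 3), and those at an unadjusted p below 0.05 numbered 808 (without UIRI replicate 1) to 4838 (without UIRI replicate 3).

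With the replicate number as a block, 6 of all genes and 0 members had an adjusted p below 0.05. Deviations of same-numbered libraries from their group means correlated at -0.378, 0.467 and 0.168 over 13939 genes, so the numbers were not taken as pairs. The split of genes at an unadjusted p below 0.05 was 1087 higher and 884 lower, and 925 higher and 1065 lower with upper quartile scaling. Hey1, Hes7, Nrarp and Dlk1 had the fewest reads, and only large differences could be seen in them.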
